A study of Homo sapiens with 21 samples.

Results

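The subunits of the respiratory chain and ATP synthase were followed as 102 protein-coding genes among the 58870 genes listed for each library. They were chosen by symbol alone, 13 encoded by mitochondrial DNA (symbols starting MT-ND, MT-CO, MT-CYB or MT-ATP) and 89 encoded in the nucleus (NDUFA, NDUFB, NDUFC, NDUFS, NDUFV, SDHA to SDHD, UQCR, COX4 to COX8 and ATP5, without the assembly factors). The rule used no measured value, but it was set with earlier results of these data known. The 21 RNA-seq libraries came from A375, a BRAF-mutant human melanoma cell line, in 7 groups of 3. The groups gSOX10 #2 and gSOX10 #4 were clones in which SOX10 had been knocked out by CRISPR with a different guide RNA for each. Each of these groups carries 1 clone name in its titles. The name on the gSOX10 #4 titles raises a doubt. The study uses it for a clone of MeWo, another melanoma line, whereas the labels of these libraries say A375, so the clone's origin is uncertain. In gSOX10 #2 and gSOX10 #4, 21 and 17 genes were at 100 or more in all 3 libraries and under 5 in all Parental ones, and 17 and 45 genes were the reverse. Neither clone received inhibitors. CRT34 and CRT35 were SOX10-deficient A375 lines that had become tolerant or resistant to BRAF and MEK inhibition in mice and were then cultured. CRT34 Combo and CRT35 Combo were grown with the BRAF inhibitor PLX4720 (1 µM) and the MEK inhibitor PD0325901 (35 nM), and CRT34 DMSO and CRT35 DMSO without them. The labels name the inhibitors in the usual medium of both lines, and how long the DMSO cells had been without them is not given in the sources used here. Parental A375 cells without treatment were the common control, so all comparisons with Parental share the same 3 libraries. By the count used for the clones, CRT34 Combo, CRT35 Combo, CRT34 DMSO and CRT35 DMSO had 50, 59, 55 and 52 such genes. The reverse held for 26, 41, 28 and 38. The question put to the members was how the 13 mitochondrial messenger RNAs behaved against the nuclear ones across the 7 groups.

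The chain passes electrons from NADH (complex I) and succinate (complex II) through complex III to oxygen at complex IV, and complex V uses the proton gradient to make ATP. Complexes I, III, IV and V combine subunits of both genomes, whereas complex II is wholly nuclear. Mitochondrial DNA is transcribed from both strands as long precursors that are cut at the transfer RNAs between genes. All of its messenger RNAs but MT-ND6 come from the heavy-strand transcript, and some of its reading frames overlap within a shared RNA.

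The overlaps matter for the values because reads over them fit either gene. MT-ATP8 and MT-ATP6, the mitochondrial subunits of complex V, shared 46 bases (GRCh38, chrM:8527-8572). MT-ND4L and MT-ND4, membrane-arm subunits of complex I, shared 7 bases (chrM:10760-10766). The junctions (chrM:8515-8584 and chrM:10748-10778, plus strand) read as follows, with the shared bases in capitals.
MT-ATP8 and MT-ATP6: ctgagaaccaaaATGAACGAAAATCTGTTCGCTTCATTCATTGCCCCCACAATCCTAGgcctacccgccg
MT-ND4L and MT-ND4: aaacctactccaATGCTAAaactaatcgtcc

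The values were gene-level read estimates that the authors had scaled between libraries, and they summed to 59200296 to 68332960 per library. From the most frequent low value, taken as 1 read, depth ran from 27132088 to 75531769 reads, lowest in CRT35 DMSO replicate 1. SOX10 was 392 to 517 in the clones and 0 to 6.32 in the CRT libraries, against 10348 to 12822 in Parental. Of the melanocytic markers, MLANA was listed at 0 in all libraries, TYR was at most 0.957, DCT at most 11.2 and PMEL at most 65.3. MITF ran from 862 to 10247, with means of 2396 in gSOX10 #2, 1449 in gSOX10 #4, 7658 in CRT34 Combo, 3382 in CRT35 Combo, 2173 in CRT34 DMSO and 1564 in CRT35 DMSO, against 1447 in Parental. The means of TYRP1 in these groups were 28.1, 7.40, 621, 199, 386 and 60.6, against 28.1. The summed level of 8 fibroblast markers, among them COL1A1 and COL3A1, was 3236 to 3664 in gSOX10 #2, 1941 to 2262 in gSOX10 #4, 149398 to 174084 in CRT34 Combo, 327742 to 534900.0 in CRT35 Combo, 187946 to 246424 in CRT34 DMSO and 216989 to 318234 in CRT35 DMSO, against 1036 to 1212 in Parental, and its part in the results was not tested. In gSOX10 #2 and gSOX10 #4 the largest were LUM (means of 1308 and 719) and PDGFRB (1251 and 820). COL3A1 had 26.7 and 7.62 there, and THY1 (1.49 and 2.39) lay below Parental (6.02). Leukocyte markers summed to 1577 to 16886, mostly CD68, endothelial ones to 91.8 to 623 and keratinocyte ones to 1113 to 2119. The Parental means were 1222 for CD68 and 400 for LYZ, against group means of 4213 to 12673 and 4.02 to 55.2 outside Parental. PECAM1 had a mean of 12.3 in Parental and 107 to 364 outside it, KDR 129 and 8.09 to 32.7, and VWF and CDH5 went both ways. KRT10 made up most of the keratinocyte sums, and KRT14 had 333 in Parental and 0 to 63.6 outside it. In bulk RNA, fewer cells with an RNA and less of it per cell cannot be told apart. Since the labels do not say that replicates were separate cultures, p-values measure the spread between libraries only.

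Messenger RNAs of mitochondrial DNA were more abundant in the clones and CRT groups than in Parental. The 13 genes together held 1.98% ± 0.106 of all summed values in gSOX10 #2, 1.40% ± 0.176 in gSOX10 #4, 2.07% ± 0.328 in CRT34 Combo, 1.64% ± 0.376 in CRT35 Combo, 1.91% ± 0.116 in CRT34 DMSO and 1.41% ± 0.0756 in CRT35 DMSO, against 0.865% ± 0.106 in Parental (SD, n = 3). The lowest of the libraries outside Parental held 1.20% and the highest Parental library 0.982%, so the groups did not overlap. Single genes were tested by limma-trend on log2(value + 1). Those whose Benjamini-Hochberg adjusted p (over 19290 genes) was not above 0.05, whatever the fold, are named called.

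All 13 mitochondrial members passed the filter on low values. In gSOX10 #2, 11 rose and 1 fell against Parental, where 23.7% of all genes tested were called higher and 20.2% lower. In gSOX10 #4, 7 rose and 1 fell, beside 19.1% and 18.8% of all genes. In CRT34 Combo the counts were 11 and 0, beside 26.4% called higher and 21.5% lower among all genes. CRT35 Combo had 9 higher and 1 lower, with 28.1% and 23.5% over all genes. CRT34 DMSO had 10 and 1, with 22.9% and 18.8%, and CRT35 DMSO had 9 and 1, with 22.9% and 19.2%. The median log2 difference of the 13 was 1.00 in gSOX10 #2, 0.50 in gSOX10 #4, 1.10 in CRT34 Combo, 0.62 in CRT35 Combo, 0.94 in CRT34 DMSO and 0.53 in CRT35 DMSO, while over all genes it lay between 0 and 0.05. The rises were unequal along the genome, as the plot of differences in gene order shows.

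**Figure D1:**
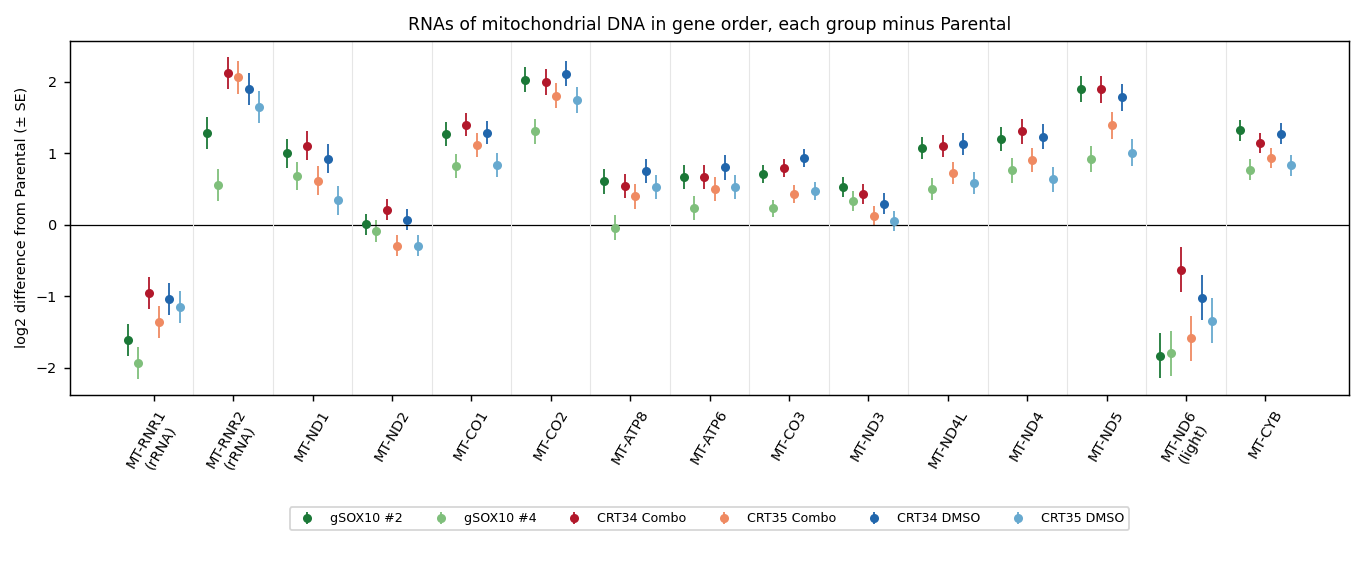
Log2 difference from Parental (vertical axis, points with SE from limma-trend) for the ribosomal RNAs and the 13 messenger RNAs of mitochondrial DNA in gene order (horizontal axis), for the clones and CRT groups. MT-CO2 and MT-ND5 stand highest among the messenger RNAs, MT-ND2 lies near 0, and MT-ND6 of the light strand and MT-RNR1 lie below 0 in all comparisons.

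MT-CO2, which carries the site where cytochrome c hands electrons to complex IV, rose most of the 13 in each comparison with Parental. Its values were 164012, 183131 and 183433 in gSOX10 #2 and 131355, 103203 and 89948 in gSOX10 #4, against 37999, 41686 and 50781 in Parental. MT-CO2 in the CRT groups stood at 208722, 197286 and 124455 in CRT34 Combo, 182552, 145181 and 130361 in CRT35 Combo, 177119, 187579 and 196590.0 in CRT34 DMSO and 145173, 145597 and 144972 in CRT35 DMSO. All libraries outside Parental lay above the Parental ones. The log2 differences were 2.03 ± 0.18 in gSOX10 #2, 1.31 ± 0.18 in gSOX10 #4, 2.00 ± 0.18 in CRT34 Combo, 1.81 ± 0.18 in CRT35 Combo, 2.11 ± 0.18 in CRT34 DMSO and 1.75 ± 0.18 in CRT35 DMSO (± SE). These are 2.47-fold to 4.33-fold, with adjusted p between 2.5e-08 and 1.5e-05. MT-CO1, the catalytic subunit with the oxygen-reducing centre, had 326811, 315481 and 364359 in gSOX10 #2 and 257248, 258211 and 225026 in gSOX10 #4, against 128065, 136104 and 154220.0 in Parental. MT-CO1 in the CRT groups stood at 377776, 437300.0 and 300650.0 in CRT34 Combo, 394619, 308374 and 227169 in CRT35 Combo, 331057, 332527 and 358160.0 in CRT34 DMSO and 267577, 235071 and 243754 in CRT35 DMSO. It was called higher in each comparison, by 0.83 to 1.40 on the log2 scale, and no library outside Parental reached down to the Parental range. MT-CO3, the remaining mitochondrial subunit of complex IV, moved less, with 61554 to 131404 outside Parental, against 61777 to 72415 in Parental. Its log2 differences were 0.71 in gSOX10 #2, 0.23 in gSOX10 #4, 0.80 in CRT34 Combo, 0.43 in CRT35 Combo, 0.94 in CRT34 DMSO and 0.47 in CRT35 DMSO, and only that of gSOX10 #4 was not called (adjusted p = 0.15).

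MT-ND5, a proton-pumping subunit at the far end of the complex I membrane arm, had 87802, 83324 and 89277 in gSOX10 #2 and 43859.6, 47854 and 40746 in gSOX10 #4, against 21469.7, 21734 and 26893 in Parental. MT-ND5 in the CRT groups stood at 94887, 108054 and 62913 in CRT34 Combo, 80528, 63556 and 44619.7 in CRT35 Combo, 75642, 80395 and 84050.0 in CRT34 DMSO and 51425, 43393 and 46089.5 in CRT35 DMSO. The groups did not overlap Parental. Its log2 differences were 1.90 ± 0.19 in gSOX10 #2, 0.92 ± 0.19 in gSOX10 #4, 1.89 ± 0.19 in CRT34 Combo, 1.40 ± 0.19 in CRT35 Combo, 1.78 ± 0.19 in CRT34 DMSO and 1.01 ± 0.19 in CRT35 DMSO (± SE). MT-ND4, another pumping subunit, had 152427, 164084 and 175305 in gSOX10 #2 and 140176, 129416 and 96591 in gSOX10 #4, against 60370.5, 71859.8 and 82566 in Parental. MT-ND4 in the CRT groups stood at 179635, 198891 and 151818 in CRT34 Combo, 166203, 132386 and 107719 in CRT35 Combo, 143250.0, 172385 and 189177 in CRT34 DMSO and 117775, 102437 and 112078 in CRT35 DMSO. It was called higher in each comparison, by 0.64 to 1.31 on the log2 scale, and its groups did not overlap Parental either. MT-ND4L, whose frame runs into MT-ND4, held 11877 to 25342 outside Parental, against 9158 to 11465 in Parental and rose by 0.50 to 1.13 on the log2 scale. The call of MT-ND4L in gSOX10 #4 was lost without Parental replicate 1, without gSOX10 #4 replicate 2 or in a fit of the compared groups alone (adjusted p from 0.064 to 0.090).

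MT-CYB, cytochrome b and the sole mitochondrial subunit of complex III, had means of 82606 in gSOX10 #2, 56142 in gSOX10 #4, 72886 in CRT34 Combo, 62806 in CRT35 Combo, 79477 in CRT34 DMSO, 58216 in CRT35 DMSO, against 32872 in Parental. It rose in each comparison, by 0.77 to 1.32 on the log2 scale with an SE of 0.14. MT-ND1, which sits where ubiquinone enters complex I, had means of 33678 in gSOX10 #2, 27207 in gSOX10 #4, 37092 in CRT34 Combo, 26505 in CRT35 Combo, 31974 in CRT34 DMSO, 21430.1 in CRT35 DMSO, against 16848 in Parental. It was called in every comparison except CRT35 DMSO (log2 difference 0.34 ± 0.20, adjusted p = 0.18). Single libraries decided some of its calls, since that of CRT35 Combo was lost without Parental replicate 2, CRT35 Combo replicate 1 or CRT35 Combo replicate 2 (adjusted p = 0.060, 0.095 and 0.058) and that of gSOX10 #4 without Parental replicate 2 (adjusted p = 0.051).

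The complex V genes MT-ATP6 and MT-ATP8 and the short MT-ND3 of complex I formed the low end of the rises. MT-ATP6 had 33718 to 74110.1 outside Parental, against 32394 to 47426 in Parental. MT-ATP8 had 4800.0 to 11049 outside Parental, against 5169 to 6969 in Parental. MT-ND3 had 9964 to 17049 outside Parental, against 9159 to 12484 in Parental. MT-ATP6, which forms the proton channel with the c-ring, differed by 0.67 in gSOX10 #2, 0.23 in gSOX10 #4, 0.67 in CRT34 Combo, 0.51 in CRT35 Combo, 0.80 in CRT34 DMSO and 0.53 in CRT35 DMSO on the log2 scale. The differences of MT-ATP8 were 0.61 in gSOX10 #2, -0.04 in gSOX10 #4, 0.55 in CRT34 Combo, 0.40 in CRT35 Combo, 0.76 in CRT34 DMSO and 0.53 in CRT35 DMSO. Both were called in gSOX10 #2, CRT34 Combo, CRT34 DMSO and CRT35 DMSO, and MT-ATP6 also in CRT35 Combo. MT-ND3 was called only in gSOX10 #2 (0.53 ± 0.14) and CRT34 Combo (0.44 ± 0.14). Single libraries decided several of these calls. Those of MT-ATP6 in CRT35 Combo and of both genes in CRT35 DMSO were lost without Parental replicate 1 (adjusted p = 0.11, 0.11 and 0.092), as were those of MT-ND3 and MT-ATP8 in CRT34 Combo (adjusted p = 0.11 and 0.072). Leaving out CRT35 Combo replicate 1 ended the call of MT-ATP6 in CRT35 Combo (adjusted p = 0.084). Leaving out CRT35 DMSO replicate 1 ended both in CRT35 DMSO (adjusted p = 0.063 and 0.060). In CRT34 Combo the call of MT-ND3 needed replicate 1 (adjusted p = 0.080 without it) and that of MT-ATP8 replicate 2 (adjusted p = 0.064 without it).

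**Figure D2:**
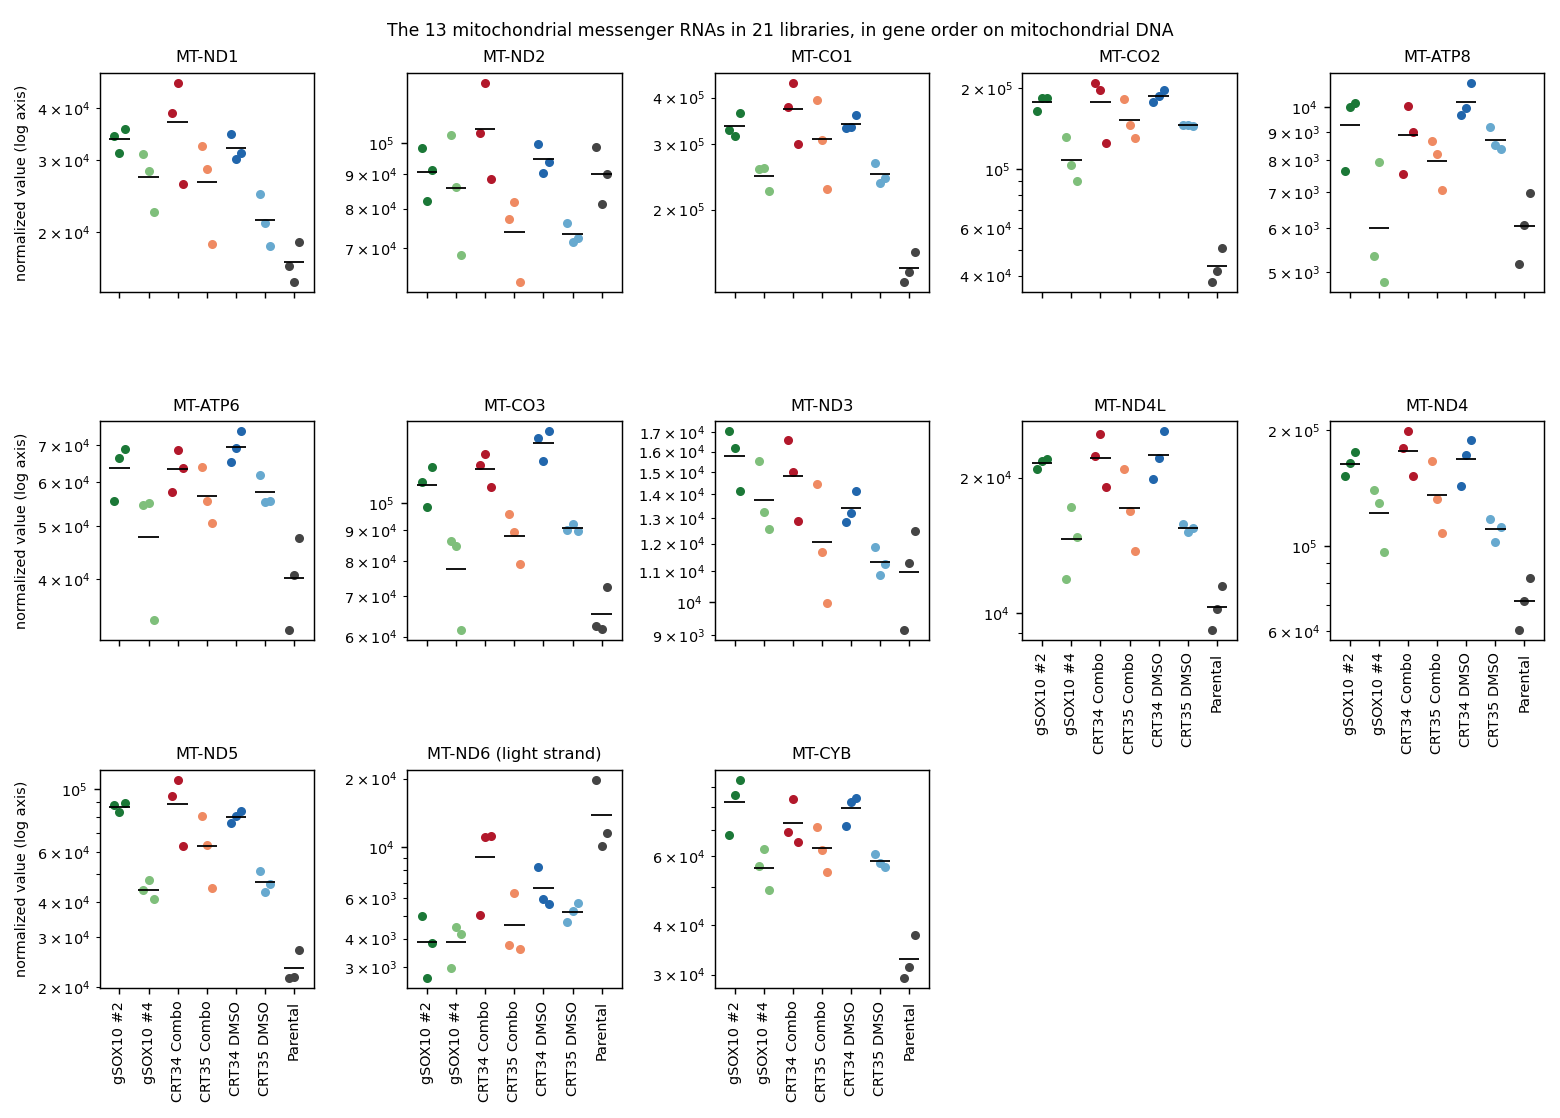
Normalized value per library (vertical log axes, each with its own range) of the 13 mitochondrial messenger RNAs in gene order, by group (horizontal axis), with points for libraries and a bar for the mean of 3. For MT-CO1, MT-CO2, MT-ND5, MT-ND4, MT-ND4L and MT-CYB all points outside Parental lie above the Parental points, while MT-ND2 overlaps Parental in each group but CRT35 DMSO, which lies below.

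MT-ND2 and MT-ND6, both of complex I, did not follow. MT-ND2 lies directly before MT-CO1 on the same strand, yet its values did not separate the groups. It had 98172, 81991 and 91293 in gSOX10 #2 and 102737, 86213 and 68422 in gSOX10 #4, against 98733, 81297 and 90084 in Parental. MT-ND2 in the CRT groups stood at 103634, 122576 and 88607 in CRT34 Combo, 77260.3, 81725 and 62405 in CRT35 Combo, 99793, 90270.0 and 93625 in CRT34 DMSO and 76198, 71428 and 72306 in CRT35 DMSO, and each group but CRT35 DMSO, which lay below, overlapped Parental. Its log2 differences were 0.01 ± 0.15 in gSOX10 #2, -0.08 ± 0.15 in gSOX10 #4, 0.21 ± 0.15 in CRT34 Combo, -0.29 ± 0.15 in CRT35 Combo, 0.07 ± 0.15 in CRT34 DMSO and -0.29 ± 0.15 in CRT35 DMSO, and none was called (lowest adjusted p = 0.11). MT-ND6 had 5045, 2691 and 3831 in gSOX10 #2 and 2974, 4475 and 4174 in gSOX10 #4, against 19774, 10124 and 11577 in Parental. MT-ND6 in the CRT groups stood at 5072, 11094 and 11206 in CRT34 Combo, 3751, 6354 and 3617 in CRT35 Combo, 8254, 5959.8 and 5686 in CRT34 DMSO and 4706, 5296 and 5727 in CRT35 DMSO. It fell by 1.83 ± 0.31 in gSOX10 #2, 1.79 in gSOX10 #4, 1.58 in CRT35 Combo, 1.02 in CRT34 DMSO and 1.34 in CRT35 DMSO on the log2 scale, whereas CRT34 Combo overlapped Parental (-0.63 ± 0.31, adjusted p = 0.11). The call in CRT34 DMSO was lost without Parental replicate 1, the highest MT-ND6 library (adjusted p = 0.098), or CRT34 DMSO replicate 3 (adjusted p = 0.057). MT-ND6 lies on the strand opposite to the others and its messenger RNA is known to lack a poly(A) tail. Library kits of different strand behaviour are named in the labels and in the methods, so its value cannot be told apart from reads of the opposite strand of its precursor if strand was not kept.

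The ribosomal RNAs, which head the heavy-strand transcript and are no members, split in the same libraries. MT-RNR1, of the small subunit, was called lower in each comparison, with log2 differences of -1.93 to -0.95. MT-RNR2, of the large subunit, was called higher except in gSOX10 #4, with differences of 1.28 in gSOX10 #2, 0.56 in gSOX10 #4, 2.12 in CRT34 Combo, 2.06 in CRT35 Combo, 1.90 in CRT34 DMSO and 1.65 in CRT35 DMSO. As ribosomal RNA is largely lost in poly(A) selection, these are levels of what was captured. None of the 22 transfer RNAs passed the filter on low values.

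Pieces of mitochondrial DNA copied into the nuclear genome can compete for reads. On chromosome 1, MTND2P28 was 98.4% identical to MT-ND2 over 1042 aligned bases, MTCO1P12 98.7% to MT-CO1, MTCO2P12 98.2% to MT-CO2 and MTATP6P1 98.5% to MT-ATP6. MTND2P28 held 1844 to 3367 against 62405 to 122576 for MT-ND2 (not per length), and MTCO2P12 at most 4.97. Of 404 such copies listed, 3 passed the filter. On the log2 scale MTND2P28 differed by 0.07 in gSOX10 #2, -0.0034 in gSOX10 #4, 0.13 in CRT34 Combo, -0.32 in CRT35 Combo, 0.05 in CRT34 DMSO and -0.21 in CRT35 DMSO, where none was called. Those of MTCO1P12, all called, were 1.95 in gSOX10 #2, 0.85 in gSOX10 #4, 1.32 in CRT34 Combo, 1.04 in CRT35 Combo, 1.28 in CRT34 DMSO and 0.81 in CRT35 DMSO. MTATP6P1 was called higher in CRT34 Combo (0.90) and CRT34 DMSO (0.75) only. How the counting shared reads between copy and gene was not tested.

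The size of the mitochondrial rise differed between the clones and between the CRT lines. Set directly against gSOX10 #2, gSOX10 #4 had 6 mitochondrial members lower and 0 higher, beside 12.5% of all genes lower and 8.88% higher. These were MT-ND5 (-0.98), MT-CO2 (-0.73), MT-ATP8 (-0.64), MT-ND4L (-0.58), MT-CYB (-0.55) and MT-CO3 (-0.48), as log2 differences. In a fit of the clones alone 1 of them was called. Among the nuclear members 18 of 84 were higher and 5 lower in gSOX10 #4, and 5 in all were called in that smaller fit. CRT35 DMSO had 5 mitochondrial members lower and 0 higher than CRT34 DMSO, beside 8.22% and 7.2% of all genes. They were MT-ND5 (-0.77), MT-ND4 (-0.60), MT-ND4L (-0.53), MT-CO3 (-0.47) and MT-CYB (-0.45). That count fell to 1 without CRT34 DMSO replicate 3 or CRT35 DMSO replicate 3, to 2 without replicate 2 of either group and to 3 without CRT35 DMSO replicate 1.

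No member passed the test between cells with and without the inhibitors. Combo against DMSO called 0 of 13 mitochondrial and 0 of 84 nuclear members in CRT34, where 4.06% of all genes were called higher and 3.8% lower. It called 0 and 0 in CRT35, where the shares were 0.664% and 0.907%. The mitochondrial log2 differences ran from -0.21 to 0.39 in CRT34 and from -0.24 to 0.38 in CRT35. At an unadjusted p under 0.05, limma gave 0 mitochondrial and 9 nuclear members in CRT34, 0 and 2 in CRT35, and 0 and 3 for the difference of the drug effects. The drug effect in CRT35 minus that in CRT34 differed for 0 members, with 0% of all genes higher and 0.0104% lower. Without CRT34 Combo replicate 1, 5 nuclear members were lower in CRT34 Combo than in CRT34 DMSO.

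Against the nuclear members, the mitochondrial ones gained most in CRT34 and gSOX10 #2 and least in gSOX10 #4. The mean log2(value + 1) of the 13 minus that of the 84 nuclear members that passed the filter was 3.35 ± 0.13 in gSOX10 #2, 2.72 ± 0.22 in gSOX10 #4, 3.74 ± 0.20 in CRT34 Combo, 3.23 ± 0.31 in CRT35 Combo, 3.70 ± 0.09 in CRT34 DMSO and 3.19 ± 0.10 in CRT35 DMSO, against 2.60 ± 0.11 in Parental (SD, n = 3). The gain over Parental was therefore 0.75 in gSOX10 #2, 0.12 in gSOX10 #4, 1.14 in CRT34 Combo, 0.63 in CRT35 Combo, 1.10 in CRT34 DMSO and 0.58 in CRT35 DMSO. The gSOX10 #4 libraries (2.57, 2.97 and 2.64) overlapped the Parental ones (2.53, 2.54 and 2.74), while each library of the other groups lay above them. Without gSOX10 #4 replicate 2 the gain there was -0.0042. With MT-ND6 left out of the 13, the difference was 2.88, 3.24 and 2.88 in the gSOX10 #4 libraries. The Parental libraries then had 2.57, 2.67 and 2.86, so these groups did not overlap, but only just (2.876 against 2.860). MT-ND6 was left out with its values known. Summed as levels, not per length, the 13 held 1.75 times the total of the nuclear members in gSOX10 #2, 1.09 times in gSOX10 #4, 2.02 and 1.56 times in CRT34 Combo and CRT35 Combo and 2.02 and 1.37 times in CRT34 DMSO and CRT35 DMSO, against 0.780 times in Parental.

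**Figure D3:**
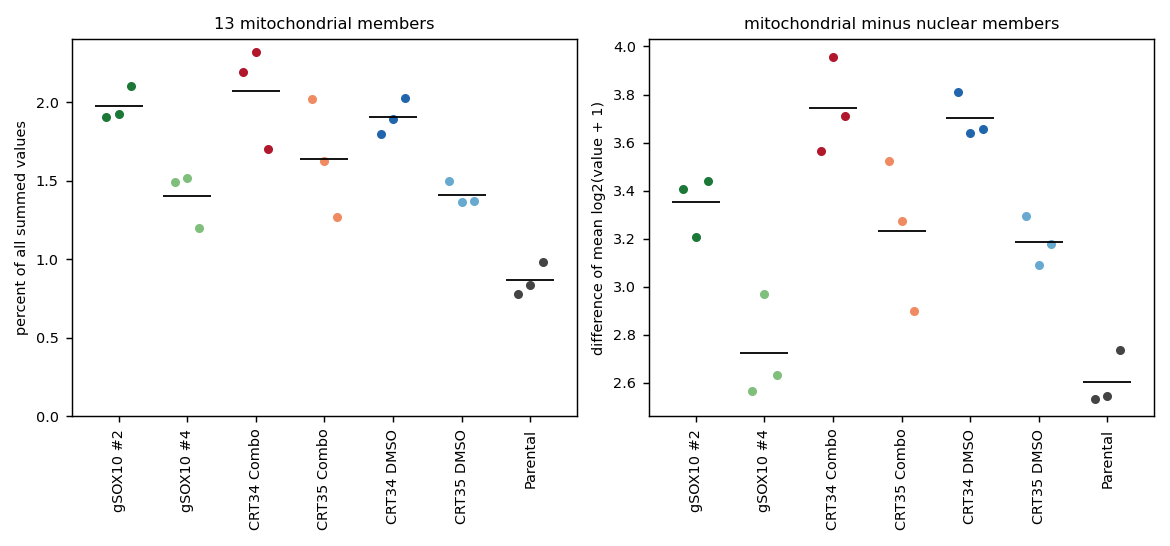
Percent of all summed values held by the 13 mitochondrial members (left) and the difference of mean log2(value + 1) between mitochondrial and nuclear members (right), per library with a bar for the mean of 3, by group (horizontal axes). The Parental mean lies lowest in both, and in the right panel gSOX10 #4 overlaps it.

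Per kilobase of the canonical transcript, the median level of the mitochondrial members per kb was 72624 in gSOX10 #2, 49204 in gSOX10 #4, 74454 in CRT34 Combo, 57700.3 in CRT35 Combo, 75626 in CRT34 DMSO and 51952 in CRT35 DMSO, against 34603 in Parental. The median of the nuclear members per kb was 6103 in gSOX10 #2, 6693 in gSOX10 #4, 5365 in CRT34 Combo, 5895 in CRT35 Combo, 5492 in CRT34 DMSO and 5894 in CRT35 DMSO, against 6053 in Parental, thus above Parental in the clones and below it in the CRT groups. MT-CO2 had 273532 per kb in CRT34 DMSO, against 63580.2 per kb in Parental. MT-CO1 had 220870.0 per kb in CRT34 DMSO and 90443 per kb in Parental, and MT-ND6 had 12635 and 26333 per kb. Thus MT-CO2 lay below MT-CO1 and MT-ND2 (86409 per kb) in Parental, and above both in CRT34 DMSO (MT-ND2, 90751 per kb).

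Nuclear subunits moved less and mostly the other way in the CRT groups. Of the 89, 84 passed the filter, and the tissue-restricted COX4I2, COX6A2, COX7A1 and COX8C and the ATP5MGL gene did not, with at most 9.48 in any library. Of the 84, the calls were 7 higher and 9 lower in gSOX10 #2, 15 higher and 4 lower in gSOX10 #4, 4 higher and 29 lower in CRT34 Combo, 8 higher and 25 lower in CRT35 Combo, 2 higher and 26 lower in CRT34 DMSO and 5 higher and 20 lower in CRT35 DMSO. In the CRT groups this made 34.5%, 29.8%, 31.0% and 23.8% lower beside 21.5%, 23.5%, 18.8% and 19.2% of all genes. Called higher there were 4.76%, 9.52%, 2.38% and 5.95%, beside 26.4%, 28.1%, 22.9% and 22.9%. In gSOX10 #2 the shares were 8.33% higher and 10.7% lower, beside 23.7% and 20.2% of all genes. In gSOX10 #4 they were 17.9% higher and 4.76% lower, beside 19.1% and 18.8%. With the values as deposited, no share in the clones thus exceeded that of all genes. Their median log2 differences were -0.01 in gSOX10 #2, 0.15 in gSOX10 #4, -0.25 in CRT34 Combo, -0.17 in CRT35 Combo, -0.24 in CRT34 DMSO and -0.13 in CRT35 DMSO. Scaling mattered here, because equal totals raise all values against Parental by 0.02 to 0.12 on the log2 scale. With equal totals the higher and lower calls became 13 and 5 in gSOX10 #2, 26 and 2 in gSOX10 #4, 8 and 20 in CRT34 Combo and 11 and 19 in CRT35 Combo. Thus the majority in gSOX10 #2 turned from lower to higher, while in the CRT groups most calls stayed lower. With equal totals outside mitochondrial DNA these were 15 and 5, 26 and 2, 8 and 19 and 13 and 16, and with quantile normalization 7 and 6, 26 and 2, 6 and 20 and 10 and 16. The shares of all genes called under these scalings are not given here, so these counts cannot be told apart from a general shift. The count in gSOX10 #2 also fell to 7 without Parental replicate 1, to 9 without Parental replicate 2 or 3 and to 8 without gSOX10 #2 replicate 3, and that of gSOX10 #4 to 11 without Parental replicate 1.

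**Figure D4:**
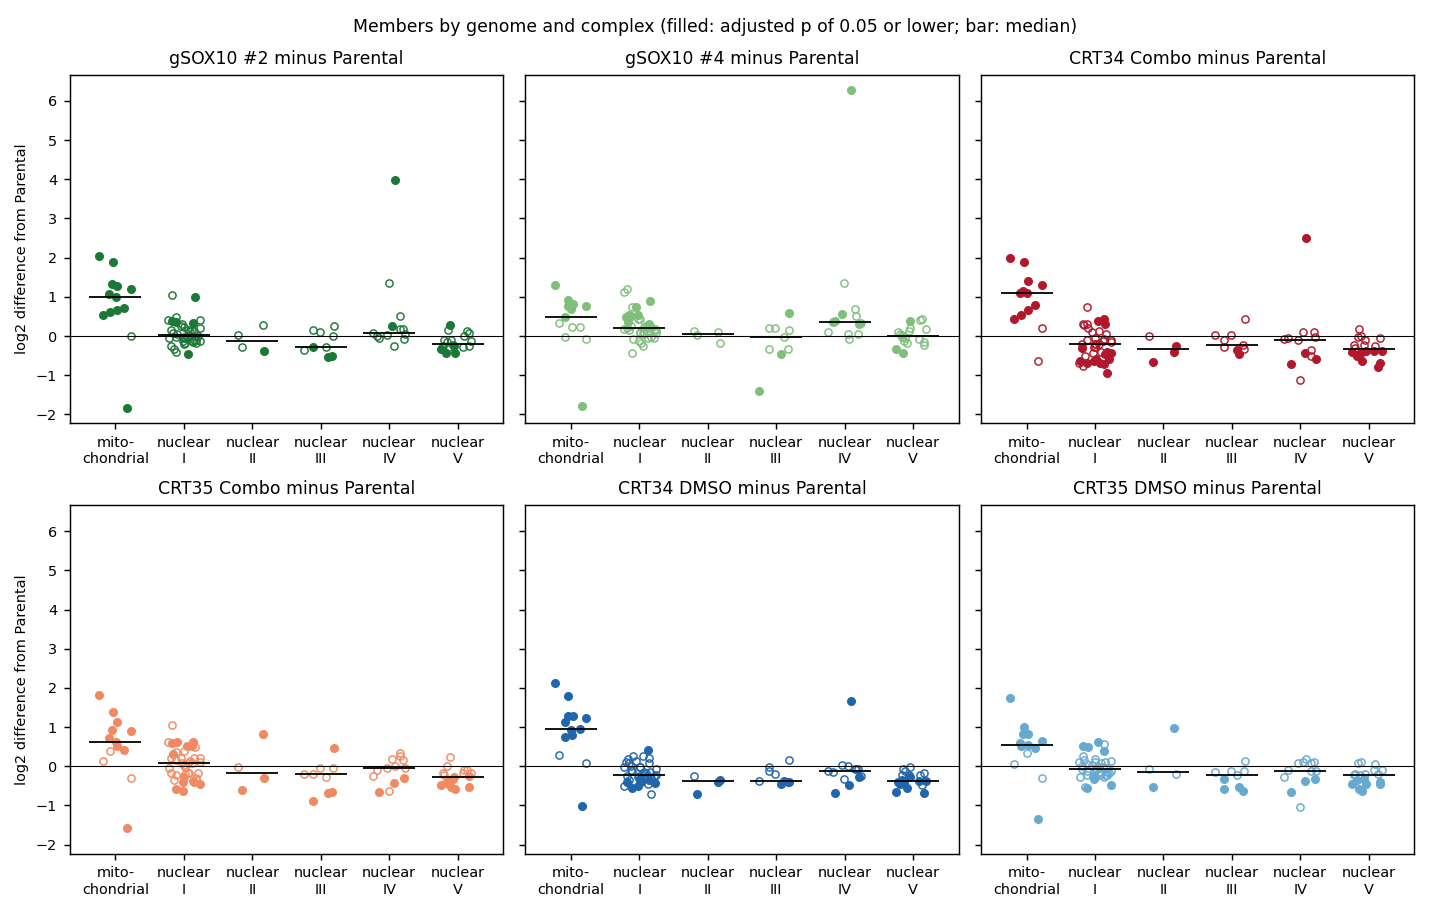
Log2 difference from Parental (vertical axis) of each tested member, a panel per comparison, split into the 13 mitochondrial members and the nuclear members of complexes I to V (horizontal axis), with filled points for adjusted p of 0.05 or lower and bars for medians. NDUFA4 is plotted under complex I by its symbol. The mitochondrial medians lie between 0.50 and 1.10 in these comparisons, and COX7B2 is the isolated high point of complex IV in the clones, CRT34 Combo and CRT34 DMSO.

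Among the 40 nuclear subunits of complex I the calls were 4 higher and 1 lower in gSOX10 #2, 8 higher and 0 lower in gSOX10 #4, 3 higher and 12 lower in CRT34 Combo, 6 higher and 7 lower in CRT35 Combo, 1 higher and 7 lower in CRT34 DMSO and 4 higher and 4 lower in CRT35 DMSO, with median log2 differences of -0.23 to 0.20 over the comparisons. By share, these were 0% to 30% lower, beside 18.8% to 23.5% of all genes, and 2.5% to 20% higher, beside 19.1% to 28.1%. NDUFAB1, the mitochondrial acyl carrier protein, had the largest mean decrease of the nuclear members over the comparisons with Parental. It had 4532, 2985 and 2841 in CRT34 Combo, 3474, 3607 and 3761 in CRT35 Combo, 3627, 3529 and 3984 in CRT34 DMSO and 3822, 3766 and 3509 in CRT35 DMSO, against 5277, 5159 and 5817 in Parental. The CRT libraries all lay below Parental, and the called log2 differences were -0.68 to -0.54. The call of NDUFAB1 in CRT34 DMSO was lost without Parental replicate 3 or without CRT34 DMSO replicate 2 (adjusted p from 0.058 to 0.065). The call of NDUFAB1 in CRT35 DMSO was lost without Parental replicate 3 or without CRT35 DMSO replicate 3 (adjusted p from 0.054 to 0.061). In the clones it differed by -0.40 and -0.44, which were not called. NDUFB1, of the membrane arm, was called higher in gSOX10 #2 (0.37), gSOX10 #4 (0.35), CRT35 Combo (0.59) and CRT35 DMSO (0.51). The call of NDUFB1 in gSOX10 #2 was lost without Parental replicate 1 or 3, without gSOX10 #2 replicate 2 or 3 or with quantile normalization (adjusted p from 0.051 to 0.14). The call of NDUFB1 in gSOX10 #4 was lost without Parental replicate 1 or 2 or 3, without gSOX10 #4 replicate 1 or 3, without the filter or with the replicate block (adjusted p from 0.051 to 0.12). NDUFS8, an iron-sulfur subunit next to the ubiquinone site, was called higher in the clones only. It had 3034, 3051 and 2856 in gSOX10 #2 and 4294, 2427 and 2052 in gSOX10 #4, against 1356, 1419 and 1757 in Parental. Against Parental this was 0.99 ± 0.28 and 0.89 ± 0.28 on the log2 scale. The call of NDUFS8 in gSOX10 #4 was lost without Parental replicate 1 or 2, without gSOX10 #4 replicate 1 or in a fit of the compared groups alone (adjusted p from 0.053 to 0.11). Its partner NDUFS7 ran from 103 in CRT34 Combo replicate 3 to 2292 in gSOX10 #4 replicate 1, with an SE of 0.62, and was not called in any comparison with Parental. This spread was not its alone. NDUFB7 had 5650, 1703 and 639 in CRT34 Combo and 10055, 4869 and 5368 in gSOX10 #4. NDUFS1 ran the other way, with 12242, 13369 and 15788, and 6962, 10429 and 9567. Both were picked after their values were seen, and what set these libraries apart was not tested. NDUFA4, a subunit now counted to complex IV, was higher in each CRT group, by 0.39 to 0.51 on the log2 scale. The 40 were taken by symbol, so the higher calls of NDUFA4 stand here and not under complex IV. The hypoxia-linked paralog NDUFA4L2, also among the 40, stayed at 26.7 to 131 against 7484 to 14268 for NDUFA4 (neither per length). Over all complex I members the log2 differences ran from -0.96 to 1.20, the highest in NDUFS7. The read-through gene NDUFC2-KCTD14 (124 to 469 per library) shares exons with NDUFC2, and the split of reads between them is uncertain.

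The 4 subunits of complex II had 0 higher and 1 lower in gSOX10 #2, 0 higher and 0 lower in gSOX10 #4, 0 higher and 3 lower in CRT34 Combo, 1 higher and 2 lower in CRT35 Combo, 0 higher and 3 lower in CRT34 DMSO and 1 higher and 1 lower in CRT35 DMSO. Medians ran from -0.36 to 0.06. Over the comparisons this is 0% to 75% lower, beside 18.8% to 23.5% of all genes, and 0% to 25% higher, beside 19.1% to 28.1%. SDHB, the iron-sulfur subunit, was called lower in each CRT group (log2 -0.71 to -0.54), with 5741, 5642 and 6210.0 in CRT34 DMSO and 6160.0, 6964 and 6709 in CRT35 DMSO, against 9703, 9182 and 9877 in Parental. SDHC and SDHD, which anchor the complex in the membrane, had log2 differences of -0.24 to 0.14 and -0.38 to -0.18. SDHA, the flavoprotein that oxidizes succinate, had 8316, 8347 and 8957 in gSOX10 #2 and 9653, 6433 and 6854 in gSOX10 #4, against 6837, 7261 and 6917 in Parental. SDHA in the CRT groups stood at 6442, 4993 and 4470.4 in CRT34 Combo, 11308, 11942 and 14121 in CRT35 Combo, 5302, 5315 and 5438 in CRT34 DMSO and 13250.2, 14191 and 14125 in CRT35 DMSO. It lay above Parental in all CRT35 libraries and below Parental in all CRT34 libraries, so the lines did not overlap. The log2 differences from Parental were 0.82 ± 0.14 in CRT35 Combo and 0.98 ± 0.14 in CRT35 DMSO, and -0.42 ± 0.14 in CRT34 Combo and -0.39 ± 0.14 in CRT34 DMSO. The CRT34 calls were near the threshold (adjusted p = 0.021 and 0.035). The call of SDHA in CRT34 DMSO was lost without Parental replicate 1 or 2 or 3, without CRT34 DMSO replicate 1 or 2 or 3, without the filter, with quantile normalization or with the replicate block (adjusted p from 0.057 to 0.097). The call of SDHA in CRT34 Combo was lost without Parental replicate 2, without CRT34 Combo replicate 2 or 3, with equal totals, with equal totals outside mitochondrial DNA or with quantile normalization (adjusted p from 0.064 to 0.10). CRT35 DMSO minus CRT34 DMSO was 1.37 ± 0.14 (adjusted p = 3.0e-06).

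SDHA lies at the tip of the short arm of chromosome 5 (GRCh38, chr5:218303-257082), as does NDUFS6 (chr5:1801407-1816048), a zinc-binding subunit of complex I. SDHA, NDUFS6 and UQCRC1, and likewise SDHC, SDHD, COX5A and ATP5PF, were singled out after their values were seen. NDUFS6 had 3649, 3744 and 2847 in CRT35 DMSO, against 1609.7, 1536 and 1862 in CRT34 DMSO and 2097, 2187 and 2536 in Parental. CRT35 DMSO minus CRT34 DMSO was 1.03 ± 0.23 (adjusted p = 0.0052). Other genes of the region shifted with them. Of 19 tested protein-coding genes starting within 2 Mb of SDHA, 11 were called higher and 0 lower in CRT35 DMSO than in CRT34 DMSO, with a median log2 difference of 0.95. Against Parental, 12 were higher and 0 lower in CRT35 DMSO (median 0.66). Among all genes 7.2% and 22.9% were called higher in these comparisons. Of 87 genes within 2 Mb of UQCRC1 on chromosome 3, 43 were lower and 6 higher in CRT35 DMSO than in Parental (median -0.55), beside 19.2% lower and 22.9% higher over all genes. Near UQCRC2 on chromosome 16, 16 of 27 were lower and 2 higher in gSOX10 #4 (median -0.56), beside 18.8% and 19.1%. Against Parental the other groups had 6 to 10 of them lower and 4 to 6 higher (medians -0.28 to -0.17). Over all genes 18.8% to 23.5% were lower and 22.9% to 28.1% higher there. These regions were picked after the values were seen. What part the shifts of neighbouring genes had in these values was not tested.

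In complex III the 9 nuclear subunits had 0 higher and 3 lower in gSOX10 #2, 1 higher and 2 lower in gSOX10 #4, 0 higher and 2 lower in CRT34 Combo, 1 higher and 3 lower in CRT35 Combo, 0 higher and 3 lower in CRT34 DMSO and 0 higher and 4 lower in CRT35 DMSO. Median log2 differences were -0.37 to -0.02. As shares this made 22.2% to 44.4% lower, beside 18.8% to 23.5% of all genes, and 0% to 11.1% higher, beside 19.1% to 28.1%. UQCRC2, a core protein of the matrix side, was the sole nuclear member to fall by more than 2-fold against Parental in any called comparison, in gSOX10 #4. It had 7396, 13018 and 10410.5 in gSOX10 #2 and 4519.5, 5140.1 and 4892 in gSOX10 #4, against 12645, 13144 and 12348 in Parental. UQCRC2 in the CRT groups stood at 12465, 12629 and 13799 in CRT34 Combo, 10162, 10964 and 12154 in CRT35 Combo, 8547, 10352 and 10753 in CRT34 DMSO and 10237, 11749 and 12702 in CRT35 DMSO. The gSOX10 #4 libraries lay below all others. The log2 difference was -1.39 ± 0.15 from Parental (adjusted p = 1.3e-06) and -1.05 ± 0.15 from gSOX10 #2 (adjusted p = 9.5e-05). UQCRC1, its partner, was lower in CRT35 Combo (-0.88 ± 0.18) and CRT35 DMSO (-0.59 ± 0.18) and was not called in the clones or CRT34. The hinge protein UQCRH, which helps cytochrome c to dock, was lower in gSOX10 #2 (-0.54) and the CRT groups (-0.67 to -0.38) and had -0.02 in gSOX10 #4. Its intronless copy UQCRHL held 5.78% to 8.08% of the summed value of the pair as group means. Reads of these near-identical genes may have been split by the counting. UQCR11, a small subunit, was called higher in gSOX10 #4 (0.60) and CRT35 Combo (0.47). The call of UQCR11 in gSOX10 #4 was lost without Parental replicate 1 or without gSOX10 #4 replicate 1 (adjusted p from 0.070 to 0.097). The call of UQCR11 in CRT35 Combo was lost without Parental replicate 1 or 2, without CRT35 Combo replicate 1 or 2 or without the filter (adjusted p from 0.065 to 0.13).

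In complex IV, 13 of the 17 nuclear members passed, with 2 higher and 0 lower in gSOX10 #2, 5 higher and 0 lower in gSOX10 #4, 1 higher and 3 lower in CRT34 Combo, 0 higher and 3 lower in CRT35 Combo, 1 higher and 3 lower in CRT34 DMSO and 0 higher and 3 lower in CRT35 DMSO. The medians were -0.12 to 0.37, without NDUFA4, which its symbol placed under complex I. Their shares were 0% to 23.1% lower, beside 18.8% to 23.5% of all genes, and 0% to 38.5% higher, beside 19.1% to 28.1%. COX4I1, the common form of the largest nuclear subunit, had 19721, 21686 and 20062 in gSOX10 #2 and 33373, 23787 and 27295 in gSOX10 #4, against 22427, 21244 and 20314 in Parental. COX4I1 in the CRT groups stood at 13506, 12949.6 and 12677 in CRT34 Combo, 12889.8, 13179 and 14223 in CRT35 Combo, 11891, 14039 and 14144 in CRT34 DMSO and 12684, 14435 and 13763 in CRT35 DMSO. Each CRT library lay below each Parental one and each gSOX10 #4 library above, while gSOX10 #2 overlapped Parental. The log2 differences were -0.06 ± 0.11 in gSOX10 #2, 0.39 ± 0.11 in gSOX10 #4, -0.71 ± 0.11 in CRT34 Combo, -0.67 ± 0.11 in CRT35 Combo, -0.68 ± 0.11 in CRT34 DMSO and -0.65 ± 0.11 in CRT35 DMSO (± SE). The call of COX4I1 in gSOX10 #4 was lost in a fit of the compared groups alone (adjusted p = 0.086). COX5A was also called lower in the CRT groups (-0.47 to -0.38). The call of COX5A in CRT35 DMSO was lost without Parental replicate 1 or 2 or 3, without CRT35 DMSO replicate 1 or 2 or 3, without the filter, with quantile normalization or with the replicate block (adjusted p from 0.050 to 0.088). The call of COX5A in CRT35 Combo was lost without CRT35 Combo replicate 1 or with quantile normalization (adjusted p from 0.054 to 0.088). The one in CRT34 Combo was lost with quantile normalization (adjusted p = 0.057). COX7A2 (0.56 ± 0.12) and COX6B1 (0.37 ± 0.12) were called higher in gSOX10 #4 and in no other comparison with Parental. The call of COX6B1 in gSOX10 #4 was lost without Parental replicate 2 or 3, without gSOX10 #4 replicate 1 or in a fit of the compared groups alone (adjusted p from 0.056 to 0.13). COX7A2L, which joins complexes III and IV into supercomplexes, had 0.02 to 0.27 and was called only in gSOX10 #2 (adjusted p = 0.049), COX6A1 only in CRT34 Combo (-0.58), and COX8A in none (-0.51 to 0.51). The call of COX7A2L in gSOX10 #2 was lost without Parental replicate 1 or 2 or 3, without gSOX10 #2 replicate 1 or 2 or without the filter (adjusted p from 0.051 to 0.16). The call of COX6A1 in CRT34 Combo was lost without Parental replicate 1 or 3, without CRT34 Combo replicate 3, in a fit of the compared groups alone, with equal totals, with equal totals outside mitochondrial DNA or with quantile normalization (adjusted p from 0.051 to 0.17). Restricted isoforms stayed marginal except COX7B2. COX4I2, COX6A2, COX7A1 and COX8C were at or near 0, and COX6B2 held 0 to 19.1 per library, against 10401 to 19799.9 for COX6B1 (neither per length).

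COX7B2, a paralog of COX7B known mainly from testis, showed the largest change of any member. It had 246, 392 and 296 in gSOX10 #2 and 1654, 1374 and 1489 in gSOX10 #4, against 13.8, 33.6 and 13.4 in Parental. COX7B2 in the CRT groups stood at 88.2, 99.0 and 145 in CRT34 Combo, 10.9, 31.6 and 18.3 in CRT35 Combo, 56.0, 62.2 and 63.8 in CRT34 DMSO and 15.7, 26.9 and 22.7 in CRT35 DMSO. The clones, CRT34 Combo and CRT34 DMSO lay above Parental without overlap, and the CRT35 libraries overlapped it. The log2 differences were 3.98 ± 0.37 in gSOX10 #2, 6.27 ± 0.37 in gSOX10 #4, 2.49 ± 0.37 in CRT34 Combo, 0.01 ± 0.37 in CRT35 Combo, 1.66 ± 0.37 in CRT34 DMSO and 0.19 ± 0.37 in CRT35 DMSO (± SE). Adjusted p was 1.7e-07, 4.8e-10, 2.9e-05 and 0.0016 for the called ones in gSOX10 #2, gSOX10 #4, CRT34 Combo and CRT34 DMSO. Direct comparisons gave 2.29 ± 0.37 for gSOX10 #4 minus gSOX10 #2 and -1.47 ± 0.37 for CRT35 DMSO minus CRT34 DMSO, both called. The call between the CRT lines was lost without CRT35 DMSO replicate 1 (adjusted p = 0.053). COX7B2 thereby held 3.15% ± 0.505 of the summed value of the pair (not per length) in gSOX10 #2 and 13.5% ± 1.01 in gSOX10 #4, against 0.227% ± 0.136 in Parental (SD, n = 3). COX7B itself had group means of 9489 in gSOX10 #2, 9717 in gSOX10 #4, 8737 in CRT34 Combo, 7548 in CRT35 Combo, 8342 in CRT34 DMSO, 7403 in CRT35 DMSO, against 9017 in Parental and was not called. The promoters of the pair (RefSeq, GRCh38.p14, 250 bases before to 50 after the start) are shown because the pair diverged, and neither holds the motifs of respiratory genes described next.
COX7B2 (chr4:46909196-46909495, minus strand): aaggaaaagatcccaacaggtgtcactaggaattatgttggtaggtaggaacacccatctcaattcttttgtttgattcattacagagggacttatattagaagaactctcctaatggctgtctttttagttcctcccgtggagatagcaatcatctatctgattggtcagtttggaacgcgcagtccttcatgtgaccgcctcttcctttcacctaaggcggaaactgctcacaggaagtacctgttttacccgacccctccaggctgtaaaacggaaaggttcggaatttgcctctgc
COX7B (chrX:77899218-77899517, plus strand): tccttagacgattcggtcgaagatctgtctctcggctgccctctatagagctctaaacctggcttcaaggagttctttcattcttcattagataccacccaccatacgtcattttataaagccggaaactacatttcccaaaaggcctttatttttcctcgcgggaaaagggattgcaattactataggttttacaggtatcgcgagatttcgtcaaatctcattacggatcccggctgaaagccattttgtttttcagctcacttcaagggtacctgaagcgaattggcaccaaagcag

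**Figure D5:**
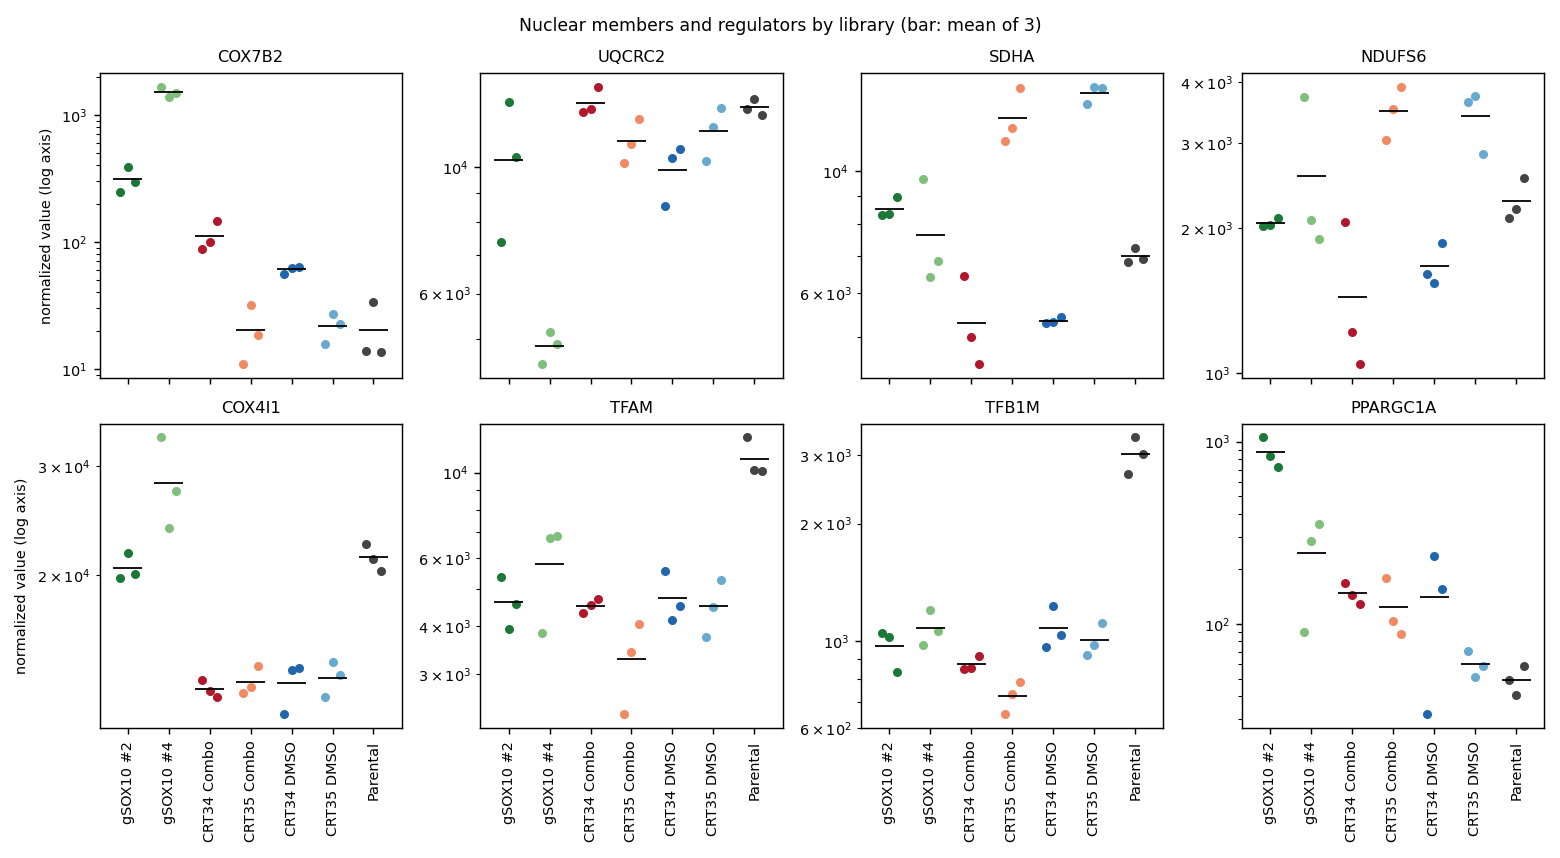
Normalized value per library (vertical log axes) of COX7B2, UQCRC2, SDHA, NDUFS6 and COX4I1 and of TFAM, TFB1M and PPARGC1A, by group (horizontal axes), with bars for the mean of 3. COX7B2 is highest in gSOX10 #4, UQCRC2 lowest there, SDHA and NDUFS6 separate CRT35 from CRT34, and TFAM and TFB1M are lower in all libraries outside Parental.

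In complex V the called members of the CRT groups were all lower. Of its 19 nuclear members 18 passed, with 1 higher and 4 lower in gSOX10 #2, 1 higher and 2 lower in gSOX10 #4, 0 higher and 9 lower in CRT34 Combo, 0 higher and 10 lower in CRT35 Combo, 0 higher and 10 lower in CRT34 DMSO and 0 higher and 8 lower in CRT35 DMSO. This made 11.1% to 55.6% lower, beside 18.8% to 23.5% of all genes, and 0% to 5.56% higher, beside 19.1% to 28.1%. Their median log2 differences were -0.20 in gSOX10 #2, -0.0003 in gSOX10 #4, -0.34 in CRT34 Combo, -0.27 in CRT35 Combo, -0.36 in CRT34 DMSO and -0.22 in CRT35 DMSO. ATP5PB, the b subunit of the stalk that holds the catalytic head, was called lower in each comparison. It had 16937, 18979 and 17369.7 in gSOX10 #2 and 18943, 18446 and 15763 in gSOX10 #4, against 23817, 21825 and 21642 in Parental. ATP5PB in the CRT groups stood at 14935, 16939 and 18972 in CRT34 Combo, 14215, 17041 and 17132 in CRT35 Combo, 13209.8, 14794 and 14460.5 in CRT34 DMSO and 15137, 16217 and 17789 in CRT35 DMSO. All libraries outside Parental lay below it. The log2 differences were -0.34 in gSOX10 #2, -0.34 in gSOX10 #4, -0.41 in CRT34 Combo, -0.48 in CRT35 Combo, -0.66 in CRT34 DMSO and -0.46 in CRT35 DMSO. The call of ATP5PB in gSOX10 #2 was lost without Parental replicate 1, without gSOX10 #2 replicate 1 or 3, with equal totals, with equal totals outside mitochondrial DNA or with quantile normalization (adjusted p from 0.062 to 0.24). The call of ATP5PB in gSOX10 #4 was lost without Parental replicate 1, without gSOX10 #4 replicate 3, in a fit of the compared groups alone, with equal totals, with equal totals outside mitochondrial DNA or with quantile normalization (adjusted p from 0.055 to 0.30). The one in CRT34 Combo was lost with quantile normalization (adjusted p = 0.090). The c-ring subunit is encoded by ATP5MC1, ATP5MC2 and ATP5MC3, which yield the same mature protein. ATP5MC3 fell in the CRT groups by 0.68 in CRT34 Combo, 0.54 in CRT35 Combo, 0.68 in CRT34 DMSO and 0.46 in CRT35 DMSO on the log2 scale. ATP5MC1 was called lower in CRT35 Combo (-0.25) and CRT35 DMSO (-0.40) and ATP5MC2 in CRT34 DMSO (-0.40). The call of ATP5MC1 in CRT35 Combo was lost without Parental replicate 1 or 2 or 3, without CRT35 Combo replicate 1 or 3, with equal totals, with equal totals outside mitochondrial DNA, with quantile normalization or with the replicate block (adjusted p from 0.055 to 0.14). The call of ATP5MC2 in CRT34 DMSO was lost without Parental replicate 2, without CRT34 DMSO replicate 1 or with quantile normalization (adjusted p from 0.052 to 0.082). In CRT34 DMSO these genes had 5862, 12872 and 9015, against 6571, 16854 and 14409.9 in Parental, as means. ATP5PF, the coupling factor of the stalk, differed by -0.44 in gSOX10 #2, 0.19 in gSOX10 #4, -0.37 in CRT34 Combo, -0.58 in CRT35 Combo, -0.28 in CRT34 DMSO and -0.45 in CRT35 DMSO, called lower in all but gSOX10 #4. The call of ATP5PF in CRT34 DMSO was lost without Parental replicate 1 or 2 or 3, without CRT34 DMSO replicate 1 or with quantile normalization (adjusted p from 0.052 to 0.11). The read-through gene ATP5MF-PTCD1 (479.6 to 1064 per library) shares exons with ATP5MF, and the split of reads between them is uncertain.

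Sequence motifs known from promoters of respiratory genes were searched on both strands of these 300-base windows, GCGCATGCG for NRF1, CCGGAAG for ETS factors such as GABP, and AAGATGGC for YY1. Windows were found for 70 of the 89 nuclear members. The NRF1 letters stood in 10 of them (14.3%), against 2.10% of all 27305 promoters, the ETS letters in 20 (28.6%, against 10.7%) and the YY1 letters in 11 (15.7%, against 3.03%). The ATP5PF promoter is shown as it holds all of them, in capitals, from the NRF1 letters over those of YY1 to those of ETS factors.
ATP5PF (chr21:25735005-25735304, minus strand): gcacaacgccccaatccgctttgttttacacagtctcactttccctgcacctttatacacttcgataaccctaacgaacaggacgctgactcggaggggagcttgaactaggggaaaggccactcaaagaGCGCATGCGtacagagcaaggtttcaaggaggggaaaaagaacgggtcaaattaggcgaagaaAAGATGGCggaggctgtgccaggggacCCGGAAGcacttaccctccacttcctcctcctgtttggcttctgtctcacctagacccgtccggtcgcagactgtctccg

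Genes that transcribe, process and maintain mitochondrial DNA were mostly lower where called, while its messenger RNAs were higher. Of 35 listed, 34 were tested, with 1 higher and 22 lower in gSOX10 #2, 2 higher and 13 lower in gSOX10 #4, 0 higher and 19 lower in CRT34 Combo, 2 higher and 21 lower in CRT35 Combo, 0 higher and 18 lower in CRT34 DMSO and 2 higher and 18 lower in CRT35 DMSO. Of those tested, this is 38.2% to 64.7% lower, beside 18.8% to 23.5% of all genes, and 0% to 5.88% higher, beside 19.1% to 28.1%. Their medians on the log2 scale were -0.49 in gSOX10 #2, -0.30 in gSOX10 #4, -0.46 in CRT34 Combo, -0.67 in CRT35 Combo, -0.52 in CRT34 DMSO and -0.44 in CRT35 DMSO. TFAM, which packages mitochondrial DNA and opens its promoters, had 5359.8, 3919.8 and 4563 in gSOX10 #2 and 3833, 6754 and 6836 in gSOX10 #4, against 12342, 10125 and 10084 in Parental. TFAM in the CRT groups stood at 4317, 4544 and 4687 in CRT34 Combo, 2362, 3426 and 4047 in CRT35 Combo, 5546, 4141 and 4498 in CRT34 DMSO and 3736, 4472 and 5279 in CRT35 DMSO. No library reached the Parental range. The log2 differences were -1.24 ± 0.22 in gSOX10 #2, -0.94 ± 0.22 in gSOX10 #4, -1.26 ± 0.22 in CRT34 Combo, -1.76 ± 0.22 in CRT35 Combo, -1.20 ± 0.22 in CRT34 DMSO and -1.28 ± 0.22 in CRT35 DMSO (± SE). TFB1M, which methylates the small ribosomal RNA, was called lower in each comparison (-2.06 to -1.47) and likewise did not overlap Parental. TFB2M, which melts the promoter for the polymerase, was called lower except in gSOX10 #4, with -1.08 in gSOX10 #2, -0.25 in gSOX10 #4, -0.88 in CRT34 Combo, -1.29 in CRT35 Combo, -0.53 in CRT34 DMSO and -0.99 in CRT35 DMSO. The polymerase POLRMT itself was called only in gSOX10 #2 (-0.61 ± 0.24). LRPPRC, which stabilizes heavy-strand messenger RNAs, was lower in each comparison (-0.69 to -0.37). TRMT10C, a part of the enzyme that cuts at the 5′ ends of transfer RNAs, was lower except in gSOX10 #4 (-1.68 to -0.54). FASTKD5, which acts at ends not bounded by transfer RNAs, reached -1.16 in CRT35 Combo. FASTK, required for MT-ND6 messenger RNA, was called higher in gSOX10 #2 (0.89), gSOX10 #4 (0.92) and CRT35 Combo (0.74), and REXO2 in gSOX10 #4 (0.44) and CRT35 Combo (0.48).

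Regulators of nuclear respiratory genes were mixed. Of 13 listed, 12 were tested, with 2 higher and 5 lower in gSOX10 #2, 2 higher and 5 lower in gSOX10 #4, 2 higher and 5 lower in CRT34 Combo, 1 higher and 6 lower in CRT35 Combo, 1 higher and 5 lower in CRT34 DMSO and 1 higher and 4 lower in CRT35 DMSO. The median log2 difference was -0.32 to -0.22 over the comparisons, beside 0 to 0.05 over all genes. The shares were 33.3% to 50% lower, beside 18.8% to 23.5% of all genes, and 8.33% to 16.7% higher, beside 19.1% to 28.1%. PPARGC1A, the coactivator PGC-1α that drives mitochondrial biogenesis, had 1056, 835 and 725 in gSOX10 #2 and 89.8, 286 and 355 in gSOX10 #4, against 49.0, 40.5 and 58.6 in Parental. PPARGC1A in the CRT groups stood at 167, 145 and 128 in CRT34 Combo, 179, 104 and 87.4 in CRT35 Combo, 31.9, 235 and 156 in CRT34 DMSO and 71.1, 50.8 and 58.9 in CRT35 DMSO. It was called higher in gSOX10 #2 (17.3-fold, adjusted p = 1.1e-05) and, as log2 differences, gSOX10 #4 (2.08 ± 0.55) and CRT34 Combo (1.56 ± 0.55). The libraries of those groups lay above Parental, as did those of CRT35 Combo, whose difference was not called (1.25 ± 0.55). The call of PPARGC1A in CRT34 Combo was lost without Parental replicate 1 or 2, without CRT34 Combo replicate 1 or 2 or with quantile normalization (adjusted p from 0.057 to 0.12). ESRRG, an estrogen-related receptor that works with it, was called higher except in gSOX10 #4 (1.60 to 2.81). PPARGC1B (-1.83 to -1.28) and PPRC1 (-1.20 to -0.61), the other coactivators of the family, were lower in each comparison, as were NRF1 (-0.77 to -0.56), whose letters the promoter search used, and MYC (-2.00 to -1.22). GABPB1, a partner of the ETS factor GABPA, was called lower in gSOX10 #2, CRT34 Combo, CRT35 Combo and CRT34 DMSO (-0.79 to -0.49).

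Mitochondrial ribosomal protein and import genes were mostly lower where called. The 78 mitochondrial ribosomal proteins had 0 higher and 41 lower in gSOX10 #2, 3 higher and 21 lower in gSOX10 #4, 0 higher and 57 lower in CRT34 Combo, 3 higher and 52 lower in CRT35 Combo, 0 higher and 54 lower in CRT34 DMSO and 3 higher and 32 lower in CRT35 DMSO. Their median log2 differences ran from -0.56 to -0.19. That is 26.9% to 73.1% lower, beside 18.8% to 23.5% of all genes, and 0% to 3.85% higher, beside 19.1% to 28.1%. Lowest in p were MRPS22 (-1.15 to -0.43 where called), MRPL47 (-1.43 to -0.49), MRPL3 (-1.41 to -0.74) and MRPS23 (-0.93 to -0.69). MRPL36 rose in CRT35 Combo (0.47) and CRT35 DMSO (0.79) and MRPL44 in CRT35 Combo (0.33) and CRT35 DMSO (0.51). The 22 genes of import, cristae and exchange had 0 higher and 20 lower in gSOX10 #2, 0 higher and 9 lower in gSOX10 #4, 0 higher and 17 lower in CRT34 Combo, 0 higher and 19 lower in CRT35 Combo, 0 higher and 19 lower in CRT34 DMSO and 0 higher and 16 lower in CRT35 DMSO. The medians of this list were -0.67 to -0.28. Its shares were 40.9% to 90.9% lower, beside 18.8% to 23.5% of all genes, and 0% higher, beside 19.1% to 28.1%. Among them the import receptors TOMM70 and TOMM22 were called lower in gSOX10 #2 (-0.60 and -1.05), and the matrix chaperone HSPA9 (-0.95 to -0.37) and the outer-membrane channel VDAC1 (-0.84 to -0.50) were lower in each comparison. The 52 assembly factors had 5 higher and 17 lower in gSOX10 #2, 8 higher and 9 lower in gSOX10 #4, 4 higher and 18 lower in CRT34 Combo, 5 higher and 23 lower in CRT35 Combo, 4 higher and 17 lower in CRT34 DMSO and 4 higher and 18 lower in CRT35 DMSO, with medians of -0.31 to -0.03. The factors were 17.3% to 44.2% lower, beside 18.8% to 23.5% of all genes, and 7.69% to 15.4% higher, beside 19.1% to 28.1%, and in gSOX10 #4 their calls were split. COX17, which carries copper to complex IV, was lower in the CRT groups (-1.03 to -0.46), and NDUFAF5 of complex I in each comparison (-1.20 to -0.57). SURF1 of complex IV was higher except in CRT35 DMSO (0.43 to 1.03).

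For the citric acid cycle and pyruvate dehydrogenase (18 genes) the counts were 1 higher and 6 lower in gSOX10 #2, 1 higher and 4 lower in gSOX10 #4, 0 higher and 7 lower in CRT34 Combo, 1 higher and 7 lower in CRT35 Combo, 1 higher and 9 lower in CRT34 DMSO and 0 higher and 5 lower in CRT35 DMSO. The list's median differences were -0.31 to -0.06, with 22.2% to 50% lower, beside 18.8% to 23.5% of all genes, and 0% to 5.56% higher, beside 19.1% to 28.1%. FH, fumarate hydratase, was lower in each comparison (-0.83 to -0.41), and IDH3B reached -1.12 in CRT35 Combo. For electron carriers and coenzyme Q synthesis (15 genes) they were 3 higher and 7 lower in gSOX10 #2, 2 higher and 4 lower in gSOX10 #4, 0 higher and 11 lower in CRT34 Combo, 1 higher and 7 lower in CRT35 Combo, 1 higher and 10 lower in CRT34 DMSO and 1 higher and 6 lower in CRT35 DMSO. Here the medians were -0.56 to -0.13, with 26.7% to 73.3% lower, beside 18.8% to 23.5% of all genes, and 0% to 20% higher, beside 19.1% to 28.1%. COQ7 was lower (-1.48 to -0.53) in each comparison and COQ6 higher except in CRT34 Combo (0.40 to 0.91). For 20 hypoxia genes they were 7 higher and 1 lower in gSOX10 #2, 6 higher and 2 lower in gSOX10 #4, 7 higher and 7 lower in CRT34 Combo, 8 higher and 7 lower in CRT35 Combo, 6 higher and 2 lower in CRT34 DMSO and 6 higher and 4 lower in CRT35 DMSO, and the medians -0.10 to 0.32. In percent this list had 5% to 35% lower, beside 18.8% to 23.5% of all genes, and 30% to 40% higher, beside 19.1% to 28.1%. P4HA1, a collagen prolyl hydroxylase, was higher except in gSOX10 #4 (0.74 to 1.17) and the glucose transporter SLC2A1 lower in each comparison (-1.30 to -0.39). Of the RNA quality genes, MALAT1, NEAT1 and KCNQ1OT1, NEAT1 was higher in gSOX10 #2 (1.14) and CRT34 Combo (1.31) and KCNQ1OT1 lower in gSOX10 #4 (-1.59), and their part in the results was not tested.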

How the data were processed

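Messenger RNA of 21 libraries, 3 in each of 7 groups, was sequenced by the authors as paired-end reads. The authors used RSEM, DESeq2, Picard and STAR on build GRCh38, as the labels' processing notes list them. The deposited values are a signal per gene that the authors made by scaling RSEM gene counts between libraries. They are not whole, so no count test was run. Different TruSeq kits are named in the labels and in the methods, and which was used is not known here. Of 58870 identifiers 58472 matched GENCODE v44, the source of symbols and positions.

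Testing was limited to the 19290 genes that reached 10 in 3 or more libraries and used limma-trend (limma 3.58.1, R 4.3.3) on log2(value + 1), with a mean for each of the 7 groups, so that all share an estimate of the spread. Benjamini-Hochberg adjustment ran over all of them, and calls required an adjusted p not above 0.05. Fold changes on this scale understate the change of low genes. Depth differed between libraries (27132088 to 75531769 reads, as read from the low values), which limits precision for low genes more than for the members. The difference between mitochondrial and nuclear members is a description with no test. The fit was also run on simulated counts with the same spread setting for all genes and libraries. Depth and spread differ between the real libraries, so that run does not vouch for the calls.

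The members and lists were chosen with earlier results of these data known. All mitochondrial members are named. Nuclear members are named if called with a 2-fold change, if among the 5 largest mean increases or decreases against Parental (group mean of at least 100), or as paralog pairs. Of each list up to 4 genes of lowest p are named in the direction of most calls and up to 2 in the other, and PPARGC1A, NRF1, TFAM, POLRMT, LRPPRC and MYC always. The alternatives were a 2-fold minimum, no filter, a pseudocount of 10, the compared groups alone, equal totals with and without mitochondrial DNA, quantile normalization, the replicate number as a block, and leaving out libraries. Replicate numbers came from the titles and were absent for gSOX10 #2. Of the 15 pairs of the other groups, same-numbered libraries deviated together, with every correlation over 0.1, in 2 (CRT34 DMSO with Parental at 0.259, 0.124 and 0.152, and CRT35 Combo with CRT34 Combo at 0.321, 0.508 and 0.289). Promoter sequences are from RefSeq (GRCh38.p14), and copies of mitochondrial genes were aligned with Biopython.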

Additional observations from a re-analysis of the deposited data

How the results depend on the processing

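No called difference among the genes recomputed changed direction under any alternative. The split of nuclear calls in gSOX10 #2 did, and nuclear calls in CRT34 Combo against CRT34 DMSO, none at first, were higher with some scalings and lower without CRT34 Combo replicate 1. The mitochondrial minus nuclear difference changed sign in gSOX10 #4 without its replicate 2 and, as single libraries were left out, in CRT34 Combo against CRT34 DMSO (-0.06 to 0.13), CRT35 Combo against CRT35 DMSO (-0.10 to 0.21) and the difference of the drug effects (-0.14 to 0.17). Of 476 recomputed counts and differences of members, 436 stayed within 1.5 times or 1 SD and 40 moved. With a 2-fold minimum the nuclear members called fell to 1 in gSOX10 #2, 2 in gSOX10 #4, 1 in CRT34 Combo, 0 in CRT35 Combo, 1 in CRT34 DMSO and 0 in CRT35 DMSO against Parental, 2 between the clones and 3 between the CRT lines, and the mitochondrial ones to 2 in gSOX10 #4, 7 in CRT34 Combo, 4 in CRT35 Combo, 7 in CRT34 DMSO, 3 in CRT35 DMSO and 0 between the clones and between the CRT lines. In gSOX10 #2 the mitochondrial count under this minimum fell too, but stayed within 1.5 times of its 12. Without the filter 10 nuclear members were called in gSOX10 #2. In fits of the compared groups alone the nuclear counts were 31 in gSOX10 #2, 11 in gSOX10 #4 and 5 between the clones, and the mitochondrial count between the clones was 1. Equal totals gave 3 nuclear members in CRT34 Combo against CRT34 DMSO (also 3 with equal totals outside mitochondrial DNA) and 3 mitochondrial ones between the CRT lines. Quantile normalization gave 1 and 2 for these, and a mitochondrial minus nuclear difference of 0.88 in gSOX10 #2. With the replicate block 1 nuclear member was called in CRT34 Combo against CRT34 DMSO, and the block moved no other count of members by over 1.5 times. The same comparison gave 1 without CRT34 Combo replicate 3 and CRT35 DMSO replicate 1 together, and gSOX10 #4 against Parental gave 22. The cause of these shifts was not tested beyond what fewer samples or a stricter fold set by construction. Leaving out single libraries gave 7 to 15 nuclear members in gSOX10 #2, 11 to 20 in gSOX10 #4, 0 to 5 in CRT34 Combo against CRT34 DMSO and 4 to 8 between the CRT lines, 1 to 5 mitochondrial ones between the CRT lines, and a difference of -0.0042 to 0.20 in gSOX10 #4. Against Parental, called mitochondrial genes stayed called in 835 of 856 results of single genes under the alternatives. The 2-fold minimum, which ended more calls as given above, is not among the 856. Depth limits low genes such as COX7B2 in Parental most.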
